A study of Mus musculus with 10 samples.

Results

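The list of m6A peaks of adult liver at 8 weeks holds 4808 peaks in 3448 genes, out of 32804 peaks in 8641 genes over the 4 distinct peak lists of the series. Its members are all rows of the deposited table that sets the m6A immunoprecipitation (IP) at 8 weeks against its input. The 10 samples of the series are an IP and an input of whole liver from wild-type C57BL/6J mice at each of 5 ages, 8 weeks and, earlier, day 1 and the ages of 1, 2 and 4 weeks, and no treatment is named. The methods speak of a pair of animals per age, and the sources used here do not give how these were combined into 1 list. The tables for 2 and 4 weeks hold the same 8765 peaks and are counted once, as the 2/4-week list. The study describes these ages as separate, so the list of one of them, possibly that of 4 weeks, may not be among those analysed here, and "8 weeks only" means in none of the other 3 lists. With 1 list per age there is no spread between replicates, and nothing below is a test between ages. Sequencing depth is unknown, since the tables hold no read counts.

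N6-methyladenosine (m6A) is a methyl mark that a complex around the methyltransferase Mettl3 writes on adenosines of mRNA, mostly within the letters GGAC and close to the stop codon. Proteins of the YTH and Igf2bp families bind marked RNA and alter its translation or decay. In liver the mark is known from mRNAs of metabolic enzymes and of the transcription factors that keep hepatocytes differentiated. A peak is a stretch of transcript with more fragments in the IP than in the input, and its fold enrichment is the ratio of both. A gene without a peak was not called, which does not show that its mRNA lacked m6A, and a peak count is no measure of expression. In whole liver, fewer cells of a type and less RNA per cell cannot be told apart.

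The letters around the GGAC nearest the middle of the best peak are shown for genes on which the account turns, from the mm10 genome, with GGAC in capitals. The first 4 are among the genes with the highest folds, the next 5 had a peak at 8 weeks and in no other list, and the last 3 are liver transcription factors.
Krcc1, chr6:71284654-71284681, plus strand: atctaagaaagaGGACcgtaagcgtagg
Secisbp2l, chr2:125740332-125740359, minus strand: acagtgagacctGGACtcccgaccagcc
Jun, chr4:95050126-95050153, minus strand: ggtacacaagatGGACtgggttgcgacc
Cebpd, chr16:15888248-15888275, plus strand: agcttgggcactGGACtgcgagagaagc
Prps1l3, chr12:57238839-57238866, plus strand: tgatatcccggtGGACaatttatatgca
Fbxo45, chr16:32233163-32233190, minus strand: gttgcctttcgaGGACttccaaaagcct
Osbp, chr19:11992000-11992027, plus strand: taaggaaaagcaGGACtggggttcttgc
Bco2, chr9:50533273-50533300, minus strand: cctgacccctaaGGACtcatagacccga
Rorb, chr19:18977698-18977725, minus strand: cccgatcagtcaGGACtggacatgactg
Hnf4a, chr2:163570319-163570346, plus strand: cttccactgcctGGACtcctctcaagtt
Cebpa, chr7:35120658-35120685, plus strand: ttcctctgagccGGACtcggtgcgtcta
Ppara, chr15:85801283-85801310, plus strand: gccactgttcagGGACctccgaggcctg
The GGAC lay 1 nt from the peak middle in Cebpa, 5.5 nt in Ppara and in Rorb, and 29 nt in Hnf4a. It lay 184 nt from it in Krcc1, whose peak is wider. The peaks of Lrit1 and H2-Q4, also among the 10 highest folds, and of Usp32, among the 15 leading genes called at 8 weeks only, hold no GGAC on the strand of the gene.

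The labelled tissue was checked against markers of liver cell types. All counts of markers are out of those called in some list. Of 10 hepatocyte markers 6 had an 8-week peak, Asgr2 (fold 60.6), Hnf4a (51.4), Apob (26.2, 9 peaks), Apoa1 (10.2), Tat (3.25) and Fgb (1.42). Alb, Ttr, Serpina1a and Cyp3a11, which hepatocytes transcribe at very high levels, had no peak in any list as given here, and a peak list says nothing of their presence. Kupffer cell markers with a peak at 8 weeks numbered 4 of 11, Clec4f and C1qb among them, endothelial markers 11 of 19, Cdh5 and Kdr leading, and stellate markers 8 of 13, Lrat and Pdgfrb leading. Cholangiocyte markers were called in 1 of 4, erythroid markers in 0 of 16 and leukocyte markers in 1 of 8. Over all 8641 genes called in some list, 39.9% had an 8-week peak, near the Kupffer cell share of 36.4%. The hepatocyte share was 60% at 8 weeks, against 40% at day 1, 60% at 1 week and 70% in the 2/4-week list. For leukocyte markers these were 12.5%, 87.5%, 75% and 12.5%, and for erythroid markers 0%, 75%, 56.2% and 37.5%. Over all genes the other lists had 73.3%, 64.0% and 63.9%.

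A set of genes that goes against the label stood in the same list. Nrl and Crx, transcription factors of photoreceptors, Pde6b and Cnga1, which carry the light response, Rbp3, a retinoid carrier of the retina, and Rp1 and Prph2, structural proteins of photoreceptor outer segments, all had peaks at 8 weeks. Of 53 genes known from photoreceptors and other retinal neurons, 23 were called in some list, and 22 of these at 8 weeks. The 53 were written down after the first 8 had been noticed in the results. Of the 22, 10 had a peak in no other list and 12 also had one elsewhere. Those 10 are counted through the 8-week list alone, which by construction raises the share at 8 weeks. The other lists held fewer of the 23, 4 at day 1, 13 at 1 week and 8 in the 2/4-week list. The shares were 95.7% at 8 weeks and 17.4%, 56.5% and 34.8% in these lists. Over all genes called in some list they were 39.9% at 8 weeks and 73.3%, 64.0% and 63.9%. Retinal genes called in some list other than the 8-week one were all called at 1 week (13), and 12 of them at 8 weeks. The gap between 95.7% at 8 weeks and 56.5% at 1 week thus comes from the 10 genes called at 8 weeks only. Without the 8 genes noticed first, 14 of 15 were called at 8 weeks, against 3 at day 1, 9 at 1 week and 5 in the 2/4-week list. Of these 14, 6 had a peak in no other list. For 18 of the 22 genes a peak at 8 weeks had a false discovery rate (FDR) of at most 0.05. Without the retinal genes the 8-week list holds 4774 peaks in 3426 genes.

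The folds of these retinal genes reached 1190 at 8 weeks. Lrit1, which encodes a leucine-rich repeat protein of photoreceptor synapses, had its only peak in the 3′ UTR (chromosome 14, 37063008 to 37063246), with a fold of 1190 at 8 weeks, against 50.9 at 1 week and 29.9 in the 2/4-week list. Rp1 had 2 coding sequence peaks with a best fold of 527, against 7 peaks and a best fold of 50.2 at 1 week and 18.2 in the 2/4-week list. The best fold of Pde6b was 453, against 129 at 1 week. None of these 3 genes was called at day 1. Rbp3 had 7 peaks at 8 weeks, with folds between 9.87 and 305, against 4 peaks at 1 week and none in the other lists.

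Folds of different lists are not on a known shared scale, so this order of lists is a description. Among all 2962 genes called at 8 weeks and elsewhere, the best 8-week fold was above that of every other list in 694 genes, 23.4% (21.9% to 25%), and among the 12 retinal genes of this kind in 8. The 4 exceptions, Gnat1, Mpp4, Reep6 and Samd11, were the retinal genes also called at day 1, and Gnat1 had a fold of 47.9 at 8 weeks, against 123 at day 1, 72 at 1 week and 12.9 in the 2/4-week list. Without the retinal genes noticed first, the best 8-week fold was the highest in 5 of 8. A gene called in fewer lists has fewer folds to exceed, and 2056 of the 2962 genes were called in every list. These shares are therefore not on equal terms. Another 10 retinal genes had a peak at 8 weeks and in no other list, Rorb (fold 126), Cnga1 (110), Cacna2d4 (95.9), Nrl (70.5), Slc24a1 (57.8) and Crx (39.5) among them. Lists for other tissues, for which no gene had been noticed first, had few members called in any list. At 8 weeks these were 1 of 2 lens and pigment genes with a peak in any list, 1 of 5 neuronal genes, 1 of 3 muscle genes, 0 of 3 kidney genes and 1 of 1 testis genes.

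**Figure D1:**
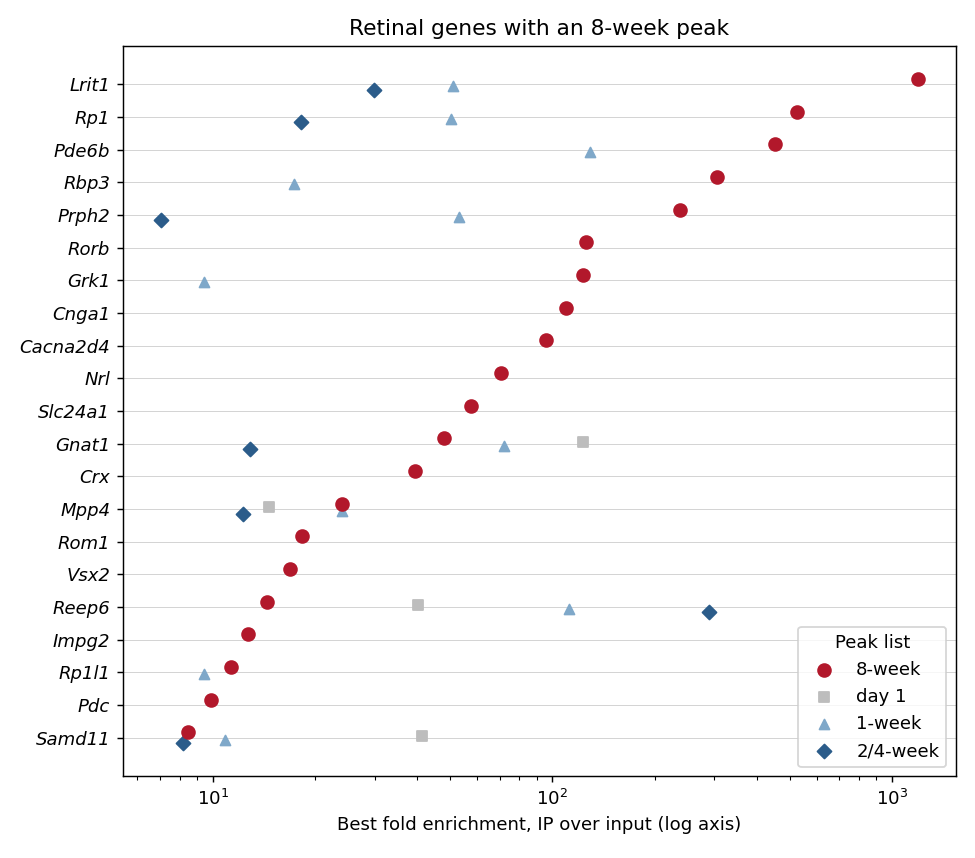
Best fold enrichment (log axis, IP over input, no unit) of the retinal genes shown, all with an 8-week peak, one row per gene and one marker per peak list, without error bars since there is 1 list per age. The 8-week markers run from 8.46 for Samd11 to 1190 for Lrit1, and 10 rows hold an 8-week marker alone.

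At 8 weeks most genes carried a single peak. Of the 3448 genes, 2566 had 1 peak, 74.4% (95% Wilson interval 72.9% to 75.8%, which like all intervals here covers counting error only), 595 had 2, 179 had 3 and 108 had 4 or more. The shares with a single peak in the other lists were 64.3% at day 1, 64.2% at 1 week and 65.7% in the 2/4-week list. With every list held to an FDR of at most 0.05, they were 74.8% at 8 weeks, against 64.3%, 64.4% and 65.8% in the same order. The 8-week list thus had 1.39 peaks per gene, against 1.6, 1.64 and 1.59.

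Genes with more peaks had longer transcripts. The longest coding transcript had a median length of 3720 nt for genes with 1 peak, 4737 nt with 2, 5690 nt with 3 and 7506 nt with 4 or more. Their peaks were of much the same fold, with medians over all peaks of 18.3, 19.7, 19.7 and 19.1 over the same classes. The best fold of a gene, a maximum over its peaks, had medians of 18.3, 37.1, 55 and 76.1. The 108 genes with 4 or more peaks held 10.7% of all peaks.

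Several of the 10 genes with most peaks have very long coding sequences. Ahnak, a giant scaffold protein, had 11 peaks, all in the coding sequence, with folds between 9.17 and 79. Spen, a transcriptional repressor that binds RNA, had 10 with folds between 6.7 and 77.6, and Plec, the cytoskeletal linker plectin, had 10 with folds between 4.23 and 76.1. Apob, the structural protein of very low density lipoprotein, had 9 peaks with folds between 1.67 and 26.2. All 40 of these peaks overlapped a peak of another list.

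Gm8995, a transcribed pseudogene, had 8 peaks, and its reads may be shared with related loci. Rbp3, Nsd1, a histone methyltransferase, Cep350, a centrosomal protein, and Zfhx3, a transcription factor with many zinc fingers, had 7 each. B3galt1, a galactosyltransferase, had 6 with a best fold of 544. Over the whole list, 36 pairs of peaks of the same gene overlapped each other. With overlapping peaks counted once, 74.9% of genes had a single peak.

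**Figure D2:**
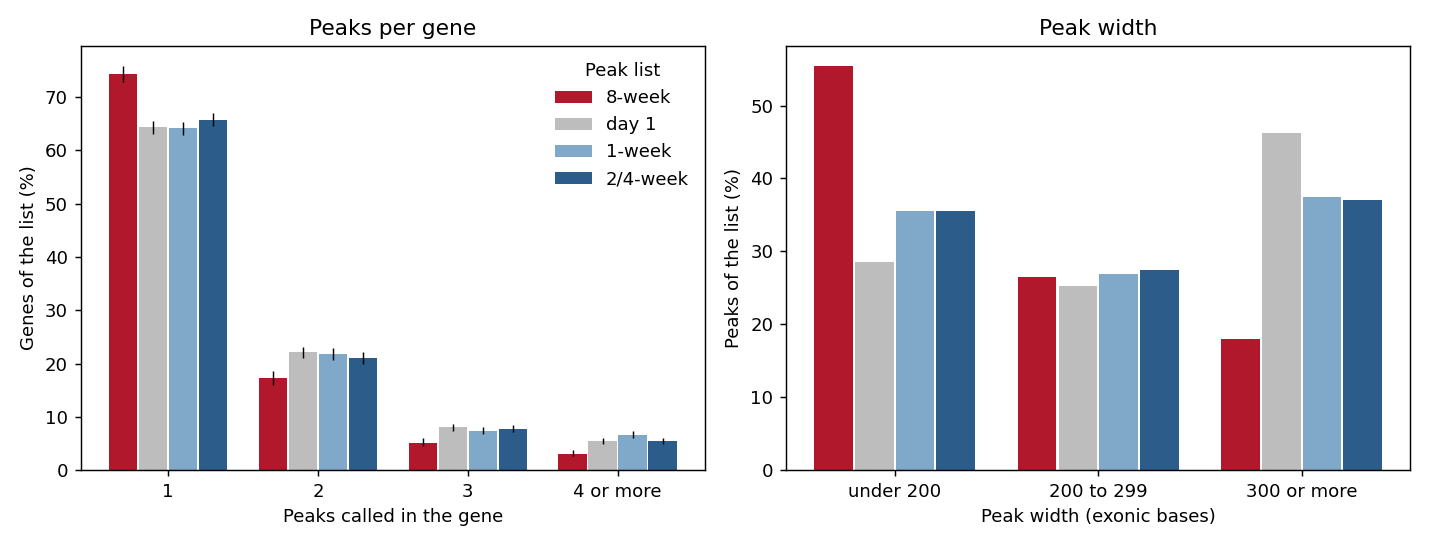
Left, share of the genes of each list (%) by the number of peaks called in the gene, with 95% Wilson intervals as error bars. Right, share of the peaks of each list (%) by width in exonic bases. The 8-week bars are the tallest for 1 peak per gene (74.4%) and for widths under 200 nt (55.4%).

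Peaks at 8 weeks were narrow. The median width in exonic bases was 181 nt (interval of the median 181 to 181), against 270 nt at day 1, 241 nt at 1 week and 240 nt in the 2/4-week list. Widths ran from 111 to 2255 nt, with quartiles of 179 and 268 nt. Of the 4808 peaks, 2665 were under 200 nt, 55.4%, against 28.6% at day 1, 35.6% at 1 week and 35.6% in the 2/4-week list. Widths were not continuous: 93.2% lay within 1 nt of a multiple of 30, and 1424 peaks, 29.6%, were 180 or 181 nt wide. With every list held to an FDR of at most 0.05, the median width at 8 weeks was 210 nt. At that threshold it was 271 nt at day 1, 241 nt at 1 week and 241 nt in the 2/4-week list.

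The widest peak, in Apoa5, an apolipoprotein that lowers plasma triglyceride, covered 2255 exonic bases in 4 blocks (chromosome 9, 46268692 to 46271711) with a fold of 469. The next widest were an Apob peak of 1679 nt, a peak of 1469 nt in the nuclear noncoding RNA Malat1, a Reep6 peak of 1313 nt and a peak of 1170 nt in Ppig, a splicing-associated prolyl isomerase. The Apob, Malat1 and Reep6 peaks had folds of 19.6, 22.1 and 14.5, below the Apoa5 value.

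Most 8-week peaks lay within 1 exon. The tables write a peak that crosses an exon junction as several blocks, and 119 peaks had 2 or more, 2.48% (2.07% to 2.95%), against 4.75% at day 1, 3.19% at 1 week and 3.81% in the 2/4-week list. There were 84 peaks with 2 blocks, 26 with 3, 7 with 4 and 1 each with 5 and 6. Wider peaks had several blocks more often, 1.65% of those under 200 nt, 2.35% from 200 to under 300 nt and 5.19% from 300 nt. Within peaks under 200 nt the shares were 1.65% at 8 weeks (1.23% to 2.21%), 1.72% at day 1, 1.05% at 1 week and 1.7% in the 2/4-week list, and from 300 nt they were 5.19% (3.9% to 6.87%), 7.85%, 5.68% and 6.47%.

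By class, 86 of the 119 peaks lay in the coding sequence, where 3.98% of peaks had several blocks, and 7 in the 3′ UTR, where 0.392% did. The peak with most blocks was in Psmd1, a subunit of the proteasome, with 599 exonic bases in 6 blocks over a span of 10890 nt and a fold of 16.1. Nop58, a core protein of nucleolar ribonucleoproteins, had 5 blocks over 4569 nt with a fold of 65.3. Apoa5, Ncl, the nucleolar protein nucleolin, and Arid4a, a chromatin-associated repressor, had 4 each.

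Coding sequence and 3′ UTR held most of the list by the deposited class. The coding sequence had 2161 peaks, 44.9% (43.5% to 46.4%), the 3′ UTR 1786, 37.1% (35.8% to 38.5%), exon 695, 14.5% (13.5% to 15.5%), the 5′ UTR 160, 3.33% (2.86% to 3.87%), and the stop codon 6. Of the exon-class peaks, 472 belonged to protein-coding genes, and the middle of 424 of these lay on the longest coding transcript. Peaks of FDR above 0.05 made up 12.3% of the coding sequence class, 14.2% of the 3′ UTR class and 19.6% of the exon class. The 6 stop codon peaks had a median fold of 47, against 19.7 in the coding sequence and 18.3 in the 3′ UTR.

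The deposited table gives 1 class to each peak, so positions were also read from the transcript. On the longest coding transcript, 53.7% of 4483 peak middles fell in the coding sequence, 42.3% in the 3′ UTR and 3.97% in the 5′ UTR. The last exon held 68.5% of the middles, where an even spread over the same transcripts would give 56.1%. Internal exons with a peak were long: 1138 peak middles lay in internal exons of median length 977 nt, while all internal exons of the same transcripts had a median of 136 nt. Exons over 400 nt held 79.5% of these middles and 41.6% of the internal exon bases.

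Most of the list belonged to protein-coding genes, with 4579 peaks, 95.2% (94.6% to 95.8%). The other 229 peaks, 4.76% (4.2% to 5.4%), lay in 199 genes, against 6.15% at day 1, 5.18% at 1 week and 5.44% in the 2/4-week list. They were 56 peaks of antisense RNAs, 53 of lincRNAs, 35 of biotype TEC, for transcripts that await experiment, 34 of processed pseudogenes and fewer of other kinds. An FDR above 0.05 was more frequent among them, 27.5% (22.1% to 33.6%), than among peaks of protein-coding genes, 13.5% (12.5% to 14.5%).

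Among the 8 noncoding genes with the highest folds were 9330121J05Rik (362), CT009713.10 (326), 4930470G03Rik (326), Tug1, a long noncoding RNA (248), and Gm17484 (183). All 8 had a peak in every list. Of 12 listed noncoding RNAs with a peak anywhere, 7 were called at 8 weeks, 58.3% beside the 39.9% of all genes. The 7 were Malat1 with 3 overlapping peaks, Meg3, Tug1, Kcnq1ot1, Neat1, Mir22hg and 2900097C17Rik. Xist, the RNA that silences an X chromosome, was called in every list but this one. Neither the sample titles nor the methods give the sex of these animals. The number of all genes with that pattern is not given here. The 8-week list called the fewest genes, so such a missing call, also of genes named below, is not read as a trait of the gene.

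The antisense class is uncertain where it faces another gene. Of the 56 antisense peaks, 25 overlapped an 8-week peak of a gene on the other strand, 44.6% (32.4% to 57.6%), against 2.73% of protein-coding peaks. Over the list, 92 pairs of peaks overlapped on opposite strands and 55 of these pairs had the same fold to all printed digits. The strand comes from the annotation, the sources used here do not say that reads were assigned by strand, and both names of such a pair may therefore stand for the same reads. A further 68 pairs overlapped on the same strand in different genes, 45 of them with equal folds.

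The 10 protein-coding genes with the highest folds were of varied kinds. Krcc1, a gene of little known function, had the highest, 1540, for a coding sequence peak of 479 nt (chromosome 6, 71284244 to 71284722). It had 1 peak in each other list, with folds of 29.3 at day 1, 162 at 1 week and 286 in the 2/4-week list. Apc, which holds Wnt signalling in check, had 5 peaks with a best fold of 1070, and Secisbp2l, a relative of the selenoprotein factor Secisbp2, reached 863. Jun, a subunit of AP-1, had 4 peaks with a best fold of 790, and Cebpd, a factor of the acute phase response, had 3 with a best fold of 647 in the 3′ UTR, against 199 at day 1, 188 at 1 week and 66.7 in the 2/4-week list.

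Trak2, which links mitochondria to motor proteins, had a fold of 747, and Sept7, a septin, 635. H2-Q4, at 1010, belongs to a family of very similar class I histocompatibility genes, and Prps1l3, at 591, is a close relative of Prps1, so that reads of either may come from other copies. The lowest p-values belonged mostly to other genes, which were picked out after their values had been seen. By log10 p the first were Malat1, the apolipoprotein Apoa1 (fold 10.2), the fibrinogen chain Fga (23.8), Apof (68.7), mt-Nd2 (5.18), the endoplasmic reticulum chaperone Hspa5 (57.4) and mt-Nd4 (17). The mitochondrial genome carried 9 peaks in 7 genes, all in coding sequence, with folds between 1.89 and 17.

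Folds from 5 to 100 lay mostly on a lattice. Of the 1022 folds from 5 to 10, 602 were whole multiples of 1.41 (1.409 before rounding) within 0.01, 58.9% (55.9% to 61.9%). Evenly spread values would give 1.42% for a step fixed beforehand, but this step was chosen as the best fit to these same folds. Of the 3029 folds from 10 to 100, which did not choose it, 61.4% (59.6% to 63.1%) were multiples within 0.06, where evenly spread values would give 8.52%. The commonest combination, a fold of 7.05 (5 steps) with a deposited p of 0.045, occurred in 160 peaks, and folds of 8.46 and 9.87 with a single p each in 142. All of these had a log10 FDR of -0.124, and the same 3 folds made up 454 of the 679 peaks with an FDR above 0.05. These 679 peaks were 14.1% of the list (13.2% to 15.1%), against 1.34% at day 1, 2.7% at 1 week and 3.64% in the 2/4-week list. They had a median fold of 9.87 and a median width of 151 nt, and for 466 genes they were the only peaks at 8 weeks.

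A peak at 8 weeks and in no other distinct list was found for 486 genes with 517 peaks. They were 14.1% of the genes at 8 weeks (13% to 15.3%) and 5.62% of the 8641. The genes called in 1 list alone numbered 1085 at day 1, 459 at 1 week and 662 in the 2/4-week list, 17.1%, 8.3% and 12% of those lists. Without the retinal genes, 476 genes were called at 8 weeks only. Held to an FDR of at most 0.05 in all lists, the number was 350. It was 977 with every other list cut to its 4808 peaks of lowest p, and 872 genes had no 8-week peak that overlapped a peak of another list. The genes called at 8 weeks only had a median best fold of 12.7 and 6.17% of them held several peaks. At the other end, 2056 genes, 59.6% of those at 8 weeks, were called in every list, with a median best fold of 29.6 and several peaks in 34.5%, and a best fold grows with the number of peaks.

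The peaks of genes called at 8 weeks only were weaker than the rest of the list. Their median fold was 12.7, against 19.7 for peaks of genes also called elsewhere, and 30.9% had an FDR above 0.05 (27.1% to 35.1%), against 12.1% (11.2% to 13.1%). Of the folds from 5 to 10, 78% lay on the lattice (71.1% to 83.6%), against 55.2% (51.8% to 58.5%). Of the 486 genes, 456 had a single peak, 93.8%, against 71.2% of the 2962 other genes. Of the 517 peaks, 3 overlapped a peak of another list on either strand. The choice of these genes nearly fixes that count, since only a peak of a different gene could overlap them.

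**Figure D3:**
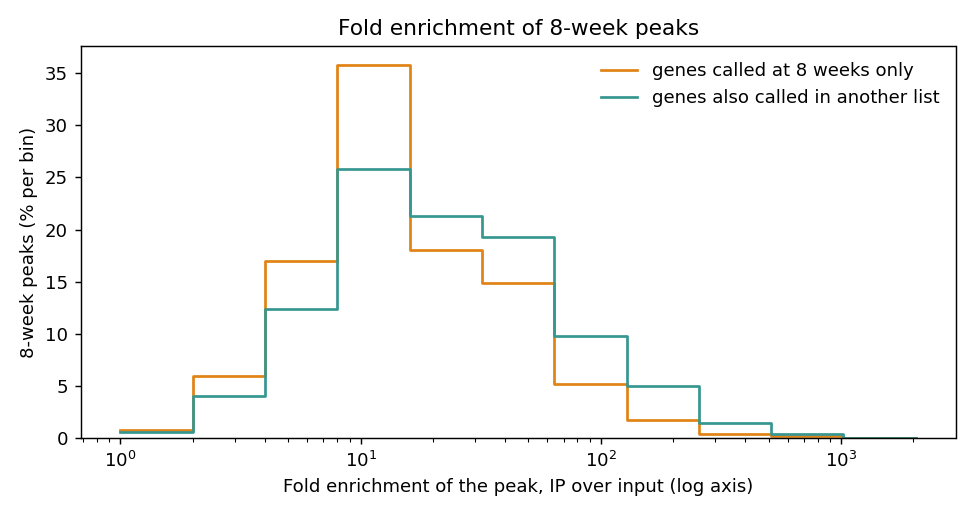
Share of 8-week peaks (% per bin, bins of a doubling) by fold enrichment (log axis, IP over input), for the 517 peaks of genes called at 8 weeks only and the 4291 peaks of genes also called in another list. The bin from 8 to 16 holds 35.8% of the first and 25.8% of the second, and above 64 the second curve is the higher one in every bin.

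Their kinds differed as well. Protein-coding genes were 82.3% of the genes called at 8 weeks only (78.7% to 85.4%), against 96.2% of the others (95.4% to 96.8%). Antisense RNAs held 5.61% of their peaks, against 0.629%, and processed pseudogenes 3.68%, against 0.35%. The exon class held 29.4% (25.6% to 33.5%), against 12.7%, and the coding sequence 30.4% (26.6% to 34.5%), against 46.7%. The 3′ UTR share was much the same, 36.8% against 37.2%.

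The 15 protein-coding genes called at 8 weeks only with the highest folds and an FDR of at most 0.05 had varied roles. Prps1l3 stood first with 591, and Fbxo45, a subunit of a ubiquitin ligase, had 2 peaks with a best fold of 471 in the 3′ UTR (chromosome 16, 32232917 to 32233245). Osbp, which carries oxysterols and sterols between membranes, had a fold of 420 for a peak of 2 blocks (chromosome 19, 11991807 to 11992250). Bco2, which cleaves carotenoids in mitochondria, had a fold of 186.

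Others were regulators. Mdm4, an inhibitor of p53, had a fold of 201, Arid4a 152, Ppig 132 and Usp32, a deubiquitinase, 111. Dhx40, a putative RNA helicase, reached 209, Tapt1, a membrane protein, 245, Adamtsl1, a protein of the extracellular matrix, 168, and Jaml, an adhesion molecule of leukocytes, 210. Rorb, a nuclear receptor of retina and brain, reached 126, and Nsg1, a neuronal endosomal protein, had 2 overlapping peaks with a best fold of 121.

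Single peaks were shared less often than genes. Of the 4808 peaks, 1264 overlapped no peak of another list on the same strand, 26.3% (25.1% to 27.6%), or 26.1% without the retinal genes, and 749 of the 1264 lay in genes that were called elsewhere. With 50% of both peaks required, 50.8% had no partner. Among genes also called elsewhere, the 749 unmatched peaks had a median fold of 13.7 and 24% had an FDR above 0.05 (21.1% to 27.2%), against 22.2 and 9.57% (8.65% to 10.6%) for the 3542 matched ones.

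GGAC was present in 3290 of 4806 peaks with sequence, 68.5% (67.1% to 69.8%). Among the 4318 peaks that lie wholly on the longest coding transcript it was present in 69.2%, where all windows of the same width on those transcripts gave 57.7%. The letters were counted on the strand of the gene only. For genes called at 8 weeks only, 59.4% of 362 peaks held it (54.3% to 64.3%), against 52.2% of their windows, and for the others 70.1% of 3956 peaks did (68.7% to 71.6%), against 58.2%. In genes called elsewhere, unmatched peaks held GGAC in 56.8% (53.2% to 60.3%) and matched ones in 72.4% (70.9% to 73.9%). Among those wholly on the transcript the shares were 56.8% for unmatched peaks, against 52% of their windows, and 72.9% for matched ones, against 59.5%.

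Width moved with these shares. GGAC was present in 57.9% of 8-week peaks under 200 nt, 76.1% of those from 200 to under 300 nt and 89.6% of those from 300 nt, and the same bins gave 58.4%, 73.6% and 91.2% at day 1, 58.1%, 75.3% and 90.2% at 1 week, and 56.8%, 72.8% and 89.9% in the 2/4-week list. The density was 5.92 GGAC per kb of 8-week peak, against 5.63, 5.81 and 5.73 per kb in the other lists. It was 5.1 per kb in peaks of genes called at 8 weeks only and 6 per kb in the others. Within 40 nt of the peak middle there were 6.53 GGAC per kb, against 4.47 at 200 to 300 nt and 4.15 over the whole transcripts. The form GGACT had 1.76 per kb in peaks, against 1.1 on the coding transcripts of the same genes, a larger ratio than GGACG with 0.595 and 0.476.

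Peak middles gathered at the stop codon in both groups. Within 200 nt of it lay 26.1% of the 4483 placed middles (24.8% to 27.4%), where an even spread gives 10.9%. The share was 36.6% for genes called at 8 weeks only (32.1% to 41.4%), against 25.1% for the others (23.7% to 26.4%). The even spread was also higher for the genes called at 8 weeks only, 14.6% against 10.6%, and their transcripts were shorter, with a median of 3320 nt over the peaks against 4612 nt. The ratios to it were 2.52 and 2.37. Unmatched peaks in genes called elsewhere had 14.5% (12.1% to 17.3%) and a ratio of 1.53.

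**Figure D4:**
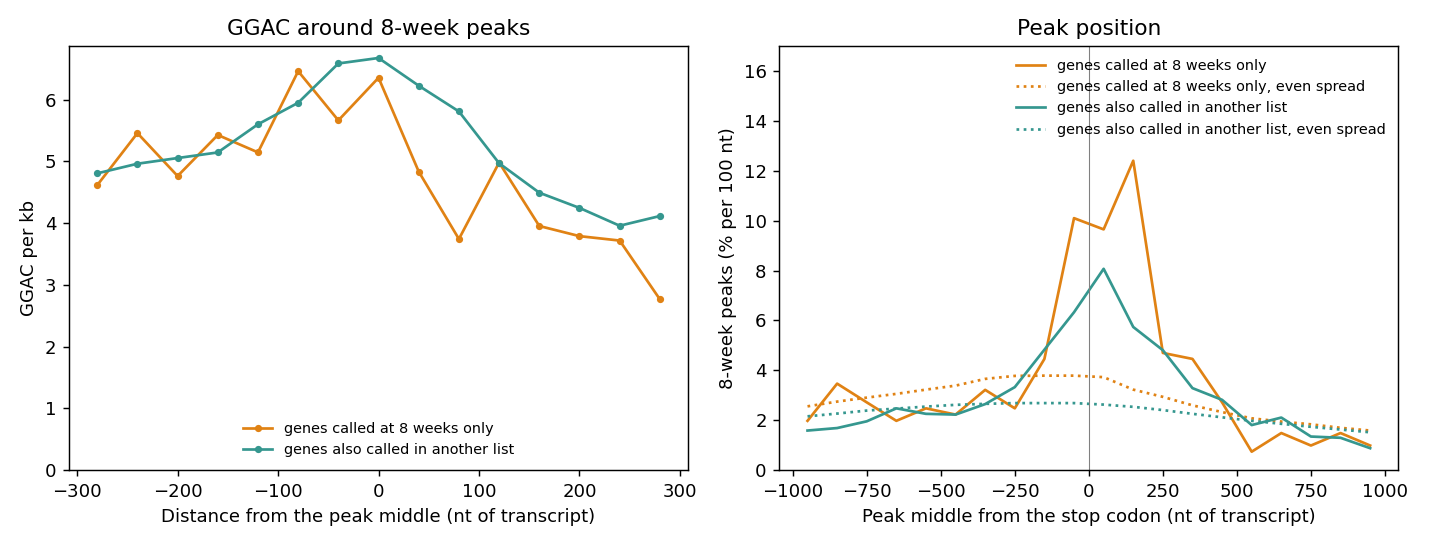
Left, GGAC per kb of transcript by distance from the middle of the 8-week peak (nt, bins of 40). Right, share of 8-week peak middles (% per 100 nt) by distance from the stop codon (nt, negative in the coding sequence), with the even spread dotted. Orange marks genes called at 8 weeks only (362 peaks left, 404 right) and teal genes also called elsewhere (3956 and 4079), and both solid curves on the right rise above their dotted ones around 0.

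Of the listed groups other than the retinal one, liver transcription factors had the highest share called at 8 weeks. Of 44 listed factors 41 were called in some list and 33 at 8 weeks, 80.5%, beside the 39.9% of all genes. The counts were 31 at day 1, 33 at 1 week and 31 in the 2/4-week list, beside 73.3%, 64.0% and 63.9% of all genes. Their best folds at 8 weeks had a median of 33.8. Hnf4a, a receptor-type factor central to hepatocyte identity, had a 3′ UTR peak with a fold of 51.4 (chromosome 2, 163570182 to 163570541) and a 5′ UTR peak with a fold of 5.96 that no other list overlapped. Cebpa, a factor of metabolic genes, had 1 peak of 900 nt with a fold of 52.3, and Ppara, which switches on fatty acid oxidation, had peaks with folds of 108 and 1.9.

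The highest folds of the group were those of Cebpd (647), Onecut2 (349, 5 peaks), Ppara, Onecut1 (93.9) and Foxo3 (92.4). Foxa1, Foxa2 and Foxa3, which open chromatin at liver genes, had 2 peaks each with best folds of 74.7, 66.3 and 29.6. Prox1, Rxra, Nr1i3 and Tbx3 were also called. Nr5a2, a regulator of bile acid genes (fold 62, 3′ UTR), Nr3c1, the glucocorticoid receptor (40, 2 peaks), and Srebf1, which drives fatty acid synthesis (10.2, 3′ UTR), were called at 8 weeks only. Rxrb, Gata6 and Zhx2 were called in every list but the 8-week one, and Nr1h2, Nr1h3, Nr1i2 and Atf5 were also without an 8-week peak. Srebf2, Esrra and Stat3 had no peak in any list.

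The machinery of the mark was itself represented. Of 26 listed genes 19 were called in some list and 13 at 8 weeks, 68.4% beside the 39.9% of all genes. The shares were 73.7% at day 1, 57.9% at 1 week and 73.7% in the 2/4-week list, beside 73.3%, 64.0% and 63.9%. The writer subunits Rbm15 (69.1) and Rbm15b (97.3) had 4 peaks each, Zc3h13 3 (37.7) and Virma 1 (7.05, FDR above 0.05), while Mettl3 and Mettl14, the catalytic pair, had none in any list. Alkbh5, an eraser, had 1 peak (26.8), and Fto, the other eraser, was called in every list but this one, as was Pcif1. The readers Ythdf1 (79), Ythdf2 (21.2), Ythdc1 (80.5, 4 peaks) and Prrc2a (107, 4 peaks) were called, and Ythdf3 (35.3, 2 peaks) and Igf2bp2 (18.3) at 8 weeks only. Hnrnpa2b1 (12.7, FDR above 0.05) and Eif3a (3.14) completed the 13, and Wtap, Cbll1, Igf2bp3 and Hnrnpc were called in other lists only.

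Among metabolic groups the share called at 8 weeks ran from 39.1% for cholesterol genes to 75% for carbohydrate and insulin genes, beside the 39.9% of all genes. In the other lists all genes had shares of 73.3% at day 1, 64.0% at 1 week and 63.9% in the 2/4-week list. Carbohydrate and insulin genes were called in 21 of 28 at 8 weeks, against 78.6%, 67.9% and 89.3% in these lists. They were led by Sik3 (313), a kinase that restrains gluconeogenesis, Irs1 (202), which relays the insulin signal, and Pik3r1 (136). Fatty acid and lipid genes were called in 28 of 46, 60.9%, against 71.7%, 63% and 76.1%. Of these, Acsm1 (35.6) and Acsl1 (11.3), which activate fatty acids, Acacb (11.3), which makes the malonyl-CoA that holds back oxidation, Dgat2 (2.49), of triglyceride synthesis, and Cpt1a (1.95), which admits fatty acids to mitochondria, were called at 8 weeks only. The Dgat2 and Cpt1a folds are among the low values of the list. Pnpla2, Acadm, Pdk4 and Ppargc1a were called in every other list and not here.

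Plasma protein genes were called in 28 of 52, 53.8%, against 63.5% at day 1, 59.6% at 1 week and 78.8% in the 2/4-week list. Apoa5, F7 (100), Kng1 (84.2) and F10 (77.6) led. Apoa2 (3.83), Apoc1 (16.9), Serpina10 (17.4) and C9 (8.59) were called at 8 weeks only. Urea and amino acid genes were called in 16 of 34, led by Fah (87.4), of tyrosine breakdown, with Agxt (3.28) at 8 weeks only. Their share was 47.1%, against 55.9%, 52.9% and 85.3% in the other lists. Bile acid genes were called in 13 of 28, led by Cyp7a1 (60.6) and Cyp8b1 (60.2), the enzymes that start and direct bile acid synthesis. Their share was 46.4%, against 67.9%, 50% and 85.7% in the other lists. Drug metabolism genes were called in 20 of 51, led by Sult1a1 (181), with Cyp2c38, Ces1c and Ces1f at 8 weeks only, all 3 in families of similar genes. The other lists called 25 of the 51 at day 1, 23 at 1 week and 44 in the 2/4-week list. The 8-week share was thus 39.2%, close to the 39.9% of all genes. The other shares were 49%, 45.1% and 86.3%, beside 73.3%, 64.0% and 63.9% of all genes.

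Cholesterol genes were called in 9 of 23, 39.1% and thus close to the 39.9% of all genes. They were called in 73.9% at day 1, 78.3% at 1 week and 69.6% in the 2/4-week list, beside 73.3%, 64.0% and 63.9%. Beside Srebf1, the sterol enzymes Sc5d (77.6), Dhcr7 (38.1) and Sqle (29.6) had peaks, while Hmgcs1, Fdft1, Lrp1, Lcat, Nceh1 and Osbpl9 were called in every other list and not here. Pericentral genes were called in 6 of 15, 40%, and periportal genes in 7 of 14, 50%, beside the 39.9% of all genes. The pericentral shares in the other lists were 60% at day 1, 60% at 1 week and 100% in the 2/4-week list. The periportal ones were 57.1%, 50% and 78.6%. Of the pericentral list, Axin2, Rnf43, Znrf3 and Slc13a3 were called in every other list and not at 8 weeks, whereas Tbx3, a T-box transcription factor, had 4 peaks (63).

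Circadian clock genes had an 8-week peak in 13 of 17, 76.5% beside the 39.9% of all genes. They were called in 76.5% at day 1, 88.2% at 1 week and 88.2% in the 2/4-week list. For all genes these shares were 73.3%, 64.0% and 63.9%. The clock genes were led by Nr1d2 (548), a repressor of the clock, with Cry1 (12.7, FDR above 0.05) at 8 weeks only. Immediate early genes had an 8-week peak in 17 of 25 (68%), led by Jun, Dusp1 (215), a phosphatase of kinases, Klf2 (175), Junb (138) and Jund (128). The other lists called 76% at day 1, 80% at 1 week and 64% in the 2/4-week list. Mcl1, which protects cells from apoptosis (48.1), Socs3, which ends cytokine signalling (26.8), and Fosb (9.87, FDR above 0.05) were called at 8 weeks only. Growth hormone axis genes were called in 12 of 21 (57.1%), against 47.6%, 42.9% and 85.7% in the other lists. They were led by Igfals (92.6), the carrier subunit of circulating Igf1, and Ghr (26.1), the receptor. Socs3 and Mup7 (2.66, log10 FDR -1.35) were called at 8 weeks only, while Igf1 and Cux2 had no 8-week peak. Of the same family as Mup7, Mup12 and Mup16 were called at 8 weeks and in the 2/4-week list, and Mup20 in the 2/4-week list alone. Among the stellate markers, Ecm1 (14.1) was called at 8 weeks only.

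**Figure D5:**
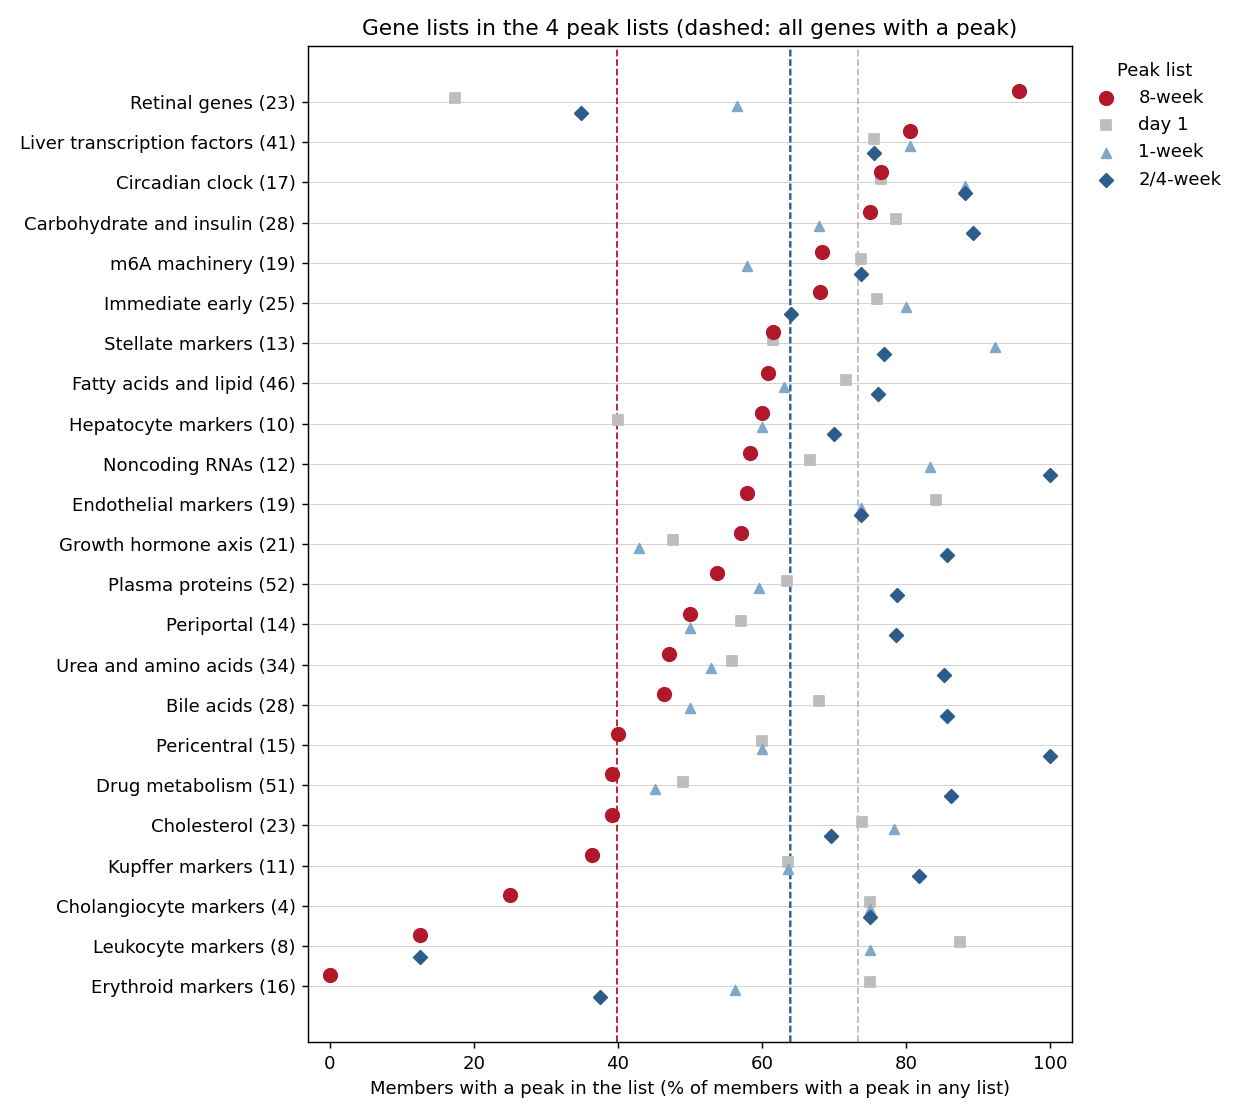
Share of the members of each gene list that have a peak in a given peak list (%), over the members with a peak in any list, whose number stands in brackets. One row per gene list, one marker per peak list, and dashed lines at the share over all genes with a peak (39.9% at 8 weeks, 73.3% at day 1, 64.0% at 1 week and 63.9% in the 2/4-week list). The 8-week marker is highest for retinal genes (95.7%) and liver transcription factors (80.5%) and lowest for erythroid markers (0%). Of the 23 retinal members, 10 are counted through the 8-week list alone. The lists of other tissues are not shown.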

How the data were processed

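Adult liver (8 weeks) and 4 earlier ages of C57BL/6J mice were profiled by m6A immunoprecipitation (IP) sequencing, 1 IP and 1 input sample per age. Per the methods, the authors aligned reads with HISAT2 to mm10, called peaks with exomePeak on IP against input and assigned them to the longest isoform, with HOMER for motifs. Versions of exomePeak and HOMER are not given in the sources used here. The labels describe poly-T bead selection and a NEBNext kit, the methods rRNA removal and Smart-seq, and neither states whether reads kept their strand. The tables as deposited by the authors hold, for each peak, the fold enrichment (a ratio of IP to input), the p-value from the peak caller, and log10 p and log10 FDR, which are treated as scores without a lower bound. The deposited class, block count and biotype were taken as given. No column of a comparison between ages was used, and 0 columns of other samples were left out.

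The 2- and 4-week tables differed in 0 columns other than the gene name, where spreadsheet dates had replaced 12 names, and were counted as 1 list. At 8 weeks 5 such names were restored through the Ensembl ID in GENCODE M21. Starts count from 0, since 164 of 166 block starts then equal exon starts (98.8%). The log10 FDR is not shown for 170 of the 8-week peaks, which were treated as below every threshold. Of 4579 peaks of protein-coding genes, 4483 (97.9%) were placed on the longest coding transcript of GENCODE M21. Overlap means at least 1 shared base on the same strand (bedtools 2.31.1). Sequences come from the RefSeq copy of the mm10 genome. Shares have 95% Wilson intervals (scipy 1.17.1), medians an order-statistic interval, and no test was run, since each age has 1 list. Scripts were tested on simulated data.

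Named were the 10 genes with most peaks, the 10 protein-coding genes with the highest folds, the 15 leading protein-coding genes called at 8 weeks only, the 8 leading noncoding genes, the 5 widest peaks and the 5 with most blocks, and in 22 gene lists up to 5 leading members and all called at 8 weeks only. All members of the liver factor and m6A lists were read by their presence in each list. The members and lists were chosen with earlier results of these data known, and the retinal list and 5 lists of other tissues were added after 8 of its genes had been seen. A few genes that fall under these rules are counted with their groups but are not reported here by name.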

Additional observations from a re-analysis of the deposited data

How the results depend on the processing

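Of 73 alternative values for 15 results, 53 stayed within the interval of the value reported or within 1.5 times of a count, and 20 moved. At an FDR of at most 0.05 the share of peaks outside protein-coding genes was 4.02%, the median width 210 nt, the share of peaks unmatched elsewhere 22.6% and that with GGAC 70.1%. At a log10 FDR of at most -3 these were 3.7%, 211 nt, 24.8% and 71.7%, with 13.1% of peaks in the exon class, 76.1% of genes with a single peak and 27.4% of middles near the stop codon. With folds of at least 5, 76% of genes had a single peak. In protein-coding genes the coding sequence held 47.1%, the 3′ UTR 39% and the exon class 10.3%. With the other lists cut to 4808 peaks, 977 genes were called at 8 weeks only and 37.3% of peaks were unmatched. A reciprocal overlap of 50% left 50.8% unmatched, and a window of 100 nt around the stop codon held 14.9%. Counting genes without any overlapped peak, added after seeing the data like the settings without retinal genes, with overlapping peaks counted once and with the FDR applied to the 8-week list alone (336 genes called at 8 weeks only), gave 872. Beyond the smaller lists and windows these settings make, the cause was not tested. No paired analysis was possible because each age has 1 list and no test was run. Depth is unknown, so a missing call cannot be told from a shallow library.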

Other observations

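The peaks with an FDR above 0.05 were compared with the rest of the 8-week list. GGAC was present in 58.3% of the 678 with sequence (54.5% to 61.9%), against 70.1% of the 4128 others (68.7% to 71.5%), and they were narrower, with a median of 151 nt against 210 nt. Per kb they held 5.95 GGAC, against 5.92. On the longest coding transcript, 22.5% of their middles lay within 200 nt of the stop codon (19.3% to 26%), against 26.7% (25.3% to 28.1%).

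Between regions of the transcript the share of peaks with GGAC was 71.3% in the coding sequence (69.4% to 73.1%), 67% in the 3′ UTR (64.8% to 69.1%) and 66.5% in the 5′ UTR (58.8% to 73.3%). Windows of the same width on the same transcripts gave 57.6%, 58.1% and 55.3%. Genes called at 8 weeks only had 6.19% of their middles in the 5′ UTR (4.23% to 8.98%), against 3.75% (3.21% to 4.38%) for genes also called elsewhere.

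In the other tissue lists the members with an 8-week peak were Lrat, which stellate cells also express (fold 357), Nrxn3 (19.7), Ryr2 (9.87) and Hspa1l (9.87). The peaks of Ryr2 and Hspa1l had an FDR above 0.05 and no counterpart in another list.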
